A study of Drosophila melanogaster with 4 samples.

Results

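The Su(Hw) peaks of the X chromosome are described here: all 999 peaks placed on X, chosen by chromosome name alone, of 5357 peaks in the deposited list (18.6%). The list comes from chromatin immunoprecipitation and sequencing (ChIP-seq) of white prepupae, the brief stage at which the Drosophila larva stops moving and forms the puparium. There were 2 Su(Hw) ChIP libraries, made with the antibody Su(Hw)-PG, a rabbit polyclonal purified by affinity, and 2 input DNA libraries, all from the strain Y cn bw sp. Every animal used thus carried y[1] and oc[R3.2] on X, together with Gr22b[1], Gr22d[1] and cn[1], then CG33964[R4.2], bw[1] and sp[1] on chromosome 2, and LysC[1], lab[R4.2] and MstProx[1], with GstD5[1] and Rh6[1], on chromosome 3. The sex of the animals is not given in the labels, and males have a single X. Reads per peak and values per library are not part of the list, so depth is unknown, the spread between the replicates cannot be given, and no test was run. Peaks and windows are not biological replicates, so X is set beside the range over the 4 large autosomal arms (2L, 2R, 3L and 3R), and no difference between arms is claimed beyond these values.

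Su(Hw), the product of suppressor of Hairy-wing, is a DNA-binding protein with an array of zinc fingers. It is best known for occupying the insulator of the gypsy retrotransposon, where it works with the partner proteins CP190 and Mod(mdg4) to keep enhancers from acting on promoters across it. It also binds many sites without gypsy sequence, and part of these lie at genes that it represses. The map of X, like those of 2L and 3L, faces the centromere at its high coordinates, and those of 2R and 3R face it at their low ones. X differs from the other large arms in being hypertranscribed in males.

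The number of peaks on X lay inside the range of the large arms, while the sequence they covered lay below it. X held 44.6 peaks per Mb (exact Poisson 95% interval 41.9 to 47.4), against 40.2 on 3L to 46.0 on 3R. After neighbouring peaks up to 1 kb apart had been merged into loci, X held 34.4 loci per Mb, against 30.3 on 3L to 34.3 on 3R. The X peaks covered 2092 kb, or 9.33% of the arm, against 9.44% on 3L to 11.5% on 3R. X therefore had the densest loci of the 5 arms and the smallest covered share, each by a small margin. The intervals given throughout count each peak as an independent event and hold no other source of error.

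The 15 strongest X peaks fell in all 4 segments of equal length, with 5, 3, 2 and 5 of them counted from the telomere. They were not evenly spread, as 4 lay between X:18016299 and X:18700442 and 2 between X:1060872 and X:1212561. X peaks were few at the top of the genome-wide ranking. The score is the authors' own value per peak, of unstated scale, and ranks peaks only within this list. The peak at X:1207433-1212561 (FlyBase release 5 coordinates throughout) was 5129 bp wide and scored 1016.39, rank 10 of the whole list. The peak at X:14057132-14060094 was narrower, at 2963 bp, and scored 1001.93. X:18663886-18668223 followed with a score of 941.96. A step separated these 3 peaks from the others, since the next, X:1087836-1097130, scored 813.38 and ranked 71 in the list. Ranks 5 to 10 were X:5659224-5662406 (score 794.13), X:18130569-18134768 (score 772.34), X:3896649-3900575 (score 762.47), X:18255243-18261282 (score 760.01), X:1521956-1529534 (score 753.85) and X:19874330-19878145 (score 752.63). These 6 peaks had similar scores, without a step like that after the third. The last 5 of the top 15 were X:14664199-14667908 (score 750.17), X:9782174-9787721 (score 746.49), X:18413013-18416489 (score 741.59), X:4106677-4110683 (score 737.92) and X:10345478-10350113 (score 735.47). The 16th peak, X:551989-556208, scored 734.94, so the limit of 15 falls within a continuous series of values.

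All 15 were wider than the median X peak of 1802 bp, with widths of 2963 to 9295 bp and a median of 4200 bp. Of the 15, 5 lay more than 10 kb from the next peak on both sides, and 7 had a weak peak within 1 kb of an edge. Of the 15 strongest, 1 peak, X:1087836-1097130, was also among the 5 widest. All 5 of the widest ranked high by score, at 4, 20, 21, 29 and 65 among the 999 X peaks. The widest X peak, X:9802026-9812055, spanned 10030 bp and scored 712.35. X:1060872-1070550 spanned 9679 bp and scored 567.1, the lowest score of the widest 5. X:14849132-14858528 spanned 9397 bp with a score of 682.71, and X:5401365-5409769 spanned 8405 bp with a score of 717.2. The widest peak of each autosomal arm was larger, at 11805 bp on 2R to 39336 bp on 3L. Peaks of 5000 bp or more made up 5.01% of the X peaks (50 peaks, Wilson 95% interval 3.82 to 6.54%), against 7.63% on 3L to 9.36% on 3R.

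The scores of the X peaks spanned a narrower range than those of the other arms, lower at the top and higher at the bottom. The 90th percentile was 505 on X, against 550 on 2L to 591 on 2R, and the upper quartile was 352 on X, against 377 on 2L to 413 on 2R. The 10th percentile was 12.02 on X, against 10.7 on 2R and 3R to 11.3 on 3L, and the lower quartile was 25.7 on X, against 21.8 on 2L to 25.2 on 2R. At each of these 4 percentiles X lay outside the autosomal range, on the side of the middle. The median score of X was 146 (binomial 95% interval 124 to 166), against 151 on 2L to 184 on 3R. The ratio of the X median to the median over all autosomal peaks was 0.870.

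X had the lowest share of the 5 arms at each limit on the highest scores. Of the X peaks, 7.21% (72 peaks, Wilson 95% interval 5.76 to 8.98%) were in the strongest 10% of the whole list, against 9.93% on 2L (interval 8.20 to 11.97%) to 12.8% on 2R. In the strongest 1% were 3 X peaks (0.3003%, interval 0.102 to 0.879%), against 0.724% of the 2L peaks (interval 0.351 to 1.49%) to 2.22% of the 2R peaks. The interval of X overlapped those of 2L and 3R at both limits, and that of 3L at the limit of 1%. Above the median score of the whole list stood 49.1% of the X peaks, against 49.8% on 2L to 53.2% on 3R, so the arms were close to one another there.

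**Figure D1:**
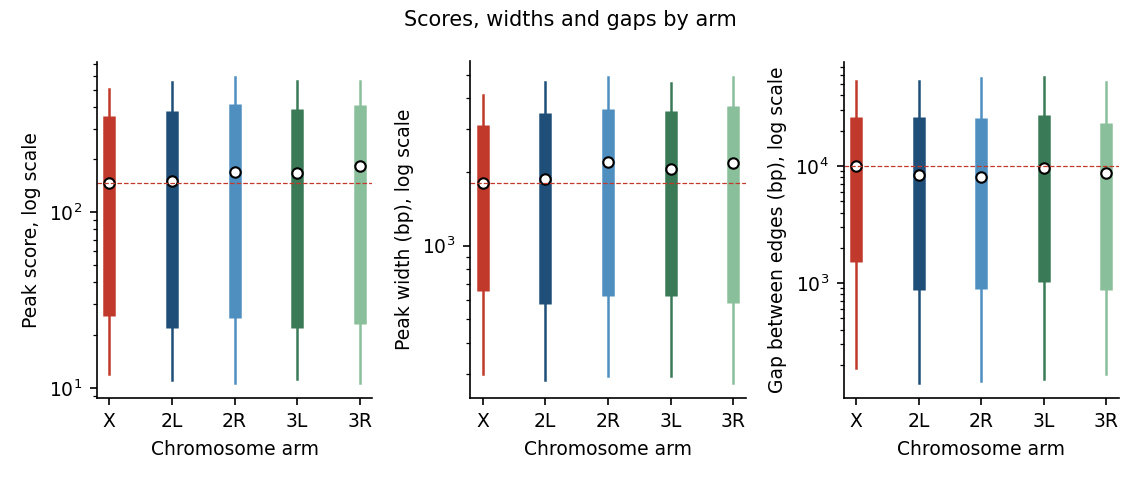
Peak scores, peak widths in bp and gaps between the edges of neighbouring peaks in bp for X and the 4 autosomal arms, on log axes. Circles are medians, thick bars run from the lower to the upper quartile, thin lines from the 10th to the 90th percentile, and the dashed line marks the X median; X has the lowest median score (146) and width (1802 bp) and the highest median gap (10088 bp) of the 5 arms.

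A larger share of the X peaks than of the peaks on any other large arm had a score that recurred in the list. The 999 X peaks had 587 distinct scores, or 58.8 distinct values per 100 peaks, against 67.9 on 3R to 78.6 on 2R. A score was counted as recurring when it occurred, to 2 decimals, at 3 or more peaks of the other 4 large arms. By that measure 55.8% of the X peaks (557 peaks, Wilson 95% interval 52.7 to 58.8%) had a recurring score, against 40.4% on 2R to 46.8% on 2L. With the whole list divided by score into 4 classes of equal size, the share was 89.8% on X in class 1, the lowest, against 65.6% on 2R to 74.2% on 3R. It was 51.1% on X in class 2, against 41.6% on 3L to 44.6% on 3R, and 43.3% on X in class 3, against 33.3% on 3L to 41.4% on 3R. In class 4, the highest, it was 38.8% on X, against 22.7% on 2R to 31.4% on 2L. X was thus highest in all 4 classes, although its interval overlapped that of at least 1 autosomal arm in classes 2, 3 and 4. Among peaks with a recurring score the median was 55.6 on X and 49.9 over the pooled autosomal arms, which ranged from 41.7 to 51.3. Among the other peaks it was 256 on X, inside the autosomal range of 244 to 293, and 262 over the pooled autosomal arms. The ratio of X to the autosomal arms was therefore 1.12 among the recurring scores (interval 0.722 to 1.695) and 0.977 among the others (interval 0.875 to 1.09), on opposite sides of 1. Recurring scores were mostly low ones, and their part in the lower median score of X was not tested.

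**Figure D2:**
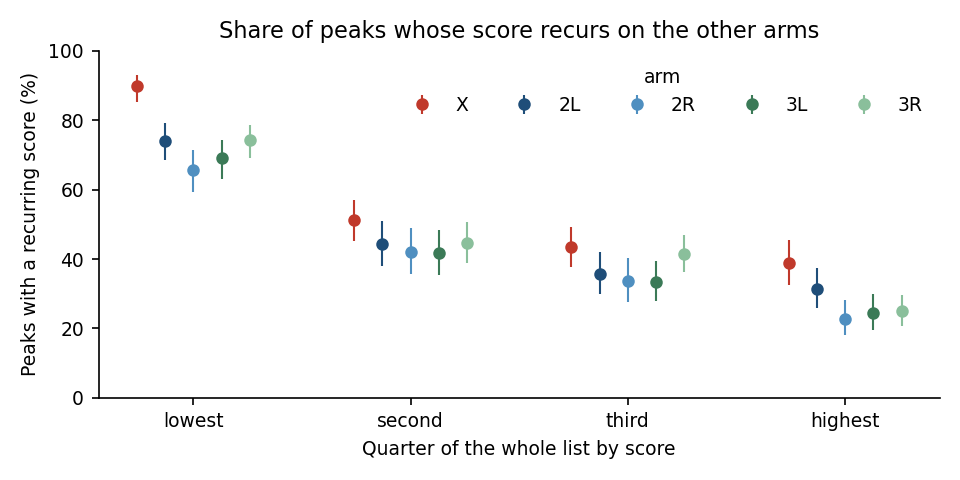
Share of peaks, in percent, whose score recurs at 3 or more peaks of the other 4 large arms, in 4 classes of equal size of the whole list ranked by score, for X and the 4 autosomal arms. Bars are Wilson 95% intervals; X has the highest share in each class, with 89.8% in the lowest and 38.8% in the highest.

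The median X peak was also narrower than that of each other large arm, and by score class this was seen in the highest class, where the X scores were lower too. The median width was 1802 bp on X (binomial 95% interval 1677 to 1961 bp), against 1878 bp on 2L to 2188 bp on 2R, and the upper quartile was 3121 bp on X, against 3473 bp on 2L to 3734 bp on 3R. Width rose with score on every arm, with a Spearman rho of 0.895 across the X peaks, against 0.913 on 3L to 0.927 on 2L; points from 1 arm share the same libraries. In score class 4 the median width was 3759 bp on X (214 peaks), against 4107 bp on 3L to 4325 bp on 2R, a ratio of 0.891 to the pooled autosomal peaks. The median score in that class was 493 on X, against 510 on 3R to 535 on 2R. In class 3 the X peaks measured 2704 bp, against 2669 bp on 2R to 2984 bp on 3R, and in class 2 1254 bp, against 1236 bp on 3R to 1338 bp on 2R. In class 1 they measured 342 bp, against 317 bp on 3R to 354 bp on 3L. X thus lay below the autosomal range in class 4 and inside it in the other 3. Without the recurring scores the ratio of median widths was 0.941, and among the recurring scores it was 0.999. Without them the X median was 2435.5 bp, inside the autosomal range of 2414 to 2825.5 bp. Among them it was 1083 bp, inside the range of 1041 to 1153 bp.

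Weak peaks were about as common on X as on the other arms and had a larger median distance to strong ones. Weak means here a score under 44.7, a working limit at the trough between the 2 humps of the score histogram of the whole list. Weak peaks numbered 316 on X (31.6%, Wilson 95% interval 28.8 to 34.6%), against 31.2% on 3L to 33.1% on 2L. The 683 strong X peaks had a median score of 278 and a median width of 2618 bp, both below the autosomal ranges of 300.5 to 321 and of 2962 to 3156 bp. The weak X peaks had a median score of 15.1, above the autosomal range of 12.8 to 14.1. A strong peak lay within 1 kb of 178 weak X peaks (56.3%, Wilson 95% interval 50.8 to 61.7%), against 57.5% on 2L to 63.5% on 3L. The median distance from a weak peak to the nearest strong one was 588.5 bp on X, against 394 bp on 3L to 496.5 bp on 2R. More than 10 kb away from any strong peak were 71 weak X peaks (22.5%), against 15.2% on 3R to 18.8% on 2L.

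Measured between edges, the short gaps of neighbouring X peaks were longer than on the other large arms, while the upper quartile of the gaps lay inside their range. The smallest gap was 44 bp on X and on each other arm. The 998 gaps had a 10th percentile of 187 bp on X, against 141.5 bp on 2L to 166 bp on 3R, and a lower quartile of 1521 bp on X, against 869.5 bp on 2L to 1026 bp on 3L. The median gap was 10088 bp on X, against 8131 bp on 2R to 9599 bp on 3L, while the upper quartile of 26050 bp lay inside the autosomal range of 23345 to 27501 bp. Gaps under 200 bp made up 10.8% on X (108 gaps), against 12.1% on 3R to 13.3% on 2R. The lower quartile of X was thus 1.68 times the pooled autosomal value. Joining at 1 kb left 770 X loci, of which 587 were single peaks and 183 combined 412 peaks, with at most 5 peaks in a locus, against up to 8 on 3R. Another peak centre within 10 kb was present for 680 X peaks (68.1%, Wilson 95% interval 65.1 to 70.9%), inside the range of 67.8% on 3L to 70.4% on 2L. Between centres, X did not have fewer close neighbours. Another centre within 2 kb was present for 24.0% of X peaks, against 21.2% of the pooled autosomal peaks and an arm range of 18.8 to 24.5%.

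Counts along X varied less between windows of 500 kb than on the other large arms, within a wide interval. The 44 complete windows of 500 kb held 7 to 38 peaks, with a median of 22.5 and a mean of 22.3 ± 7.03 (SD over windows). The variance of these counts was 2.22 times their mean on X (interval 1.51 to 3.56), against 2.78 on 3R to 3.403 on 2R. Counts of peaks joined into loci gave 1.54 on X, inside a range of 1.45 to 2.16. In windows of 100 kb the X counts ran from 0 to 16 with a median of 4, and 9 of the 224 windows were empty (4.02%), against 6.82% on 2L to 11.1% on 3L.

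The densest 500 kb window was X:18000001-18500000, with 38 peaks in 28 loci, 13 of them weak. It covered 89.5 kb with peaks, and its strongest peak scored 772.34. Among windows of 100 kb, X:18900001-19000000 held the most peaks, 16 in 9 loci, of which 8 were weak. X:7300001-7400000 held 13 peaks in 10 loci with 3 weak ones, and X:8100001-8200000 held 13 in 9 loci with 5 weak ones. X:3100001-3200000 and X:10500001-10600000 held 12 peaks each in 8 loci each, with 5 and 6 weak ones, a count that X:18000001-18100000 and X:18200001-18300000 also reached. Dense windows differed in kind: at 7.3 Mb most peaks were separate and the median score was 240, while the window at 18.9 Mb had a median score of 41.7, with 8 weak and 8 strong peaks. Dense windows were not stronger in general, as the Spearman rho between the peak count and the median score over the 44 windows was -0.08.

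**Figure D3:**
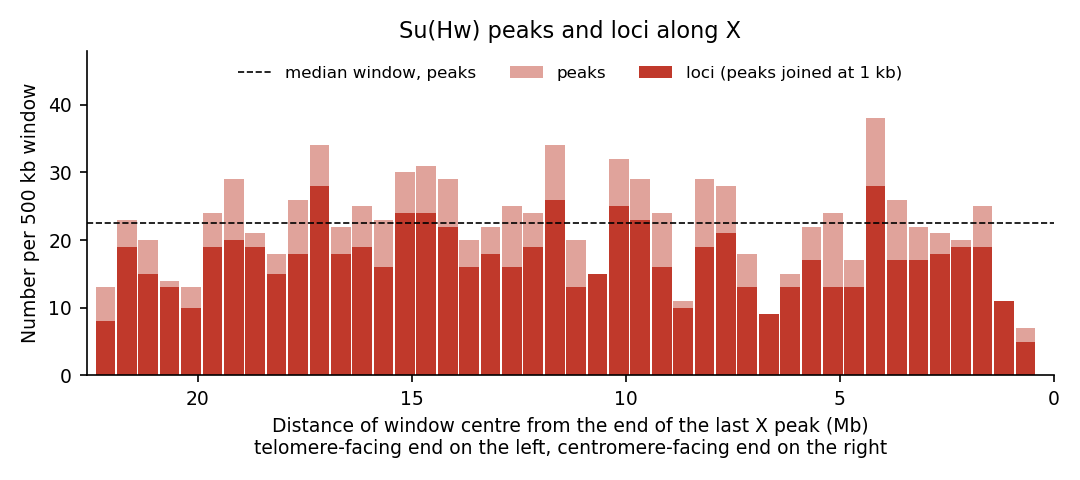
Number of peaks (pale bars) and of loci, peaks joined at 1 kb (dark bars), in the 44 complete 500 kb windows of X, by distance in Mb from the end of the last X peak, with the centromere-facing end on the right. The dashed line is the median of 22.5 peaks; the windows range from 7 peaks, next to the centromere-facing end, to 38 peaks, about 4 Mb from it, and the last incomplete window is not drawn.

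Runs of X peaks whose centres lay at most 10 kb apart reached 11 members. X:18212438-18261282 held 11 peaks in 48.8 kb, 6 of them weak, and ended with the eighth strongest peak of X. X:18914283-18934698 held 11 peaks in 20.4 kb, 7 of them weak, with a highest score of 440.2. A run of 10 peaks, X:12416972-12463720, had 3 weak peaks and a highest score of 317.12. Such runs of 5 or more peaks numbered 23 on X and held 14.2% of its peaks, against 15.4% on 3L to 22.4% on 2R. The largest autosomal run had 19 peaks, on 3R.

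Stretches of 100 kb or more without a peak took up a smaller share of X than of the other large arms, which did not hold for those of 200 kb or more. The longest was X:21366199-21634127, at 268 kb. It was followed by X:4318024-4550544 (233 kb), X:21634519-21843759 (209 kb), X:18714611-18914282 (200 kb) and X:16175548-16354736 (179 kb). The longest stretch of each autosomal arm exceeded that of X, at 276 kb on 3R to 635 kb on 2L and 937 kb on 2R. The value for 2R ran from the start of its map to its first peak. The longest gap between 2R peaks was 568461 bp, still above that of X. Such a stretch at the centromere-facing end is counted on 2R and 3R only, since X, 2L and 3L were measured to their last peak. The shares of length given next follow the same rule. Stretches of 100 kb or more numbered 23 on X and made up 14.97% of its length, against 18.8% on 3R to 26.6% on 3L. Those of 50 kb or more made up 42.6% of X, against 43.8% on 3R to 51.0% on 3L. Those of 200 kb or more numbered 3 on X and made up 3.17% of it, inside the range of 2.46% on 3R to 10.7% on 2R. Some of these stretches adjoined other features of X. X:18714611-18914282 ends where the run of 11 peaks at 18.9 Mb begins, so a long empty stretch and the densest 100 kb window of X are neighbours. X:21366199-21634127 and X:21634519-21843759 are separated by a single weak peak with a score of 33.03 and a width of 391 bp. Without read counts, a region with no peak cannot be told apart from one with too few reads.

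Median scores of windows declined along X towards the centromere about as much as on 2L, while counts did not follow a simple trend. Over the 44 windows of 500 kb, the Spearman rho with position was -0.34 for the median score, -0.23 for the median width and -0.09 for the peak count. The autosomal arms gave -0.34 on 2L to -0.08 on 3R for the median score and -0.38 on 2R to -0.10 on 2L for the count, counted towards their own centromeres. Neighbouring windows share local conditions, so these are descriptions. Leaving out the 2 windows nearest the centromere, the value for the score was -0.41 and that for the count 0.05 on X. The autosomal arms then gave -0.32 on 2L to -0.03 on 3R for the score and -0.28 on 2R to 0.02 on 2L for the count. The single X peaks gave -0.07 for the score, against -0.08 on 2L to -0.01 on 3R, so peak by peak the trend was slight.

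Divided into 4 segments of equal length from the telomere, X held 240, 288, 236 and 235 peaks. Segment 2 was the densest, with 51.4 peaks per Mb (Poisson 95% interval 45.6 to 57.7), against 41.9 to 42.8 in the other 3, the nearest of which had an interval of 37.6 to 48.6. The median score was 182, 135, 137 and 120 in the 4 segments. Its binomial 95% intervals in segment 1 (136 to 233) and segment 4 (79.5 to 162) overlap. Among strong peaks alone the median was closer between the segments, at 291, 278, 270 and 269. The share of weak peaks was 26.7%, 33.0%, 30.9% and 35.7%. The Wilson intervals of the weak share in segment 1 (21.5 to 32.6%) and segment 4 (29.9 to 42.1%) overlap. Of the X peaks with scores of 504.88 or more, a limit at which the 100th-ranked peak ties with the next, 41 lay in segment 1, 24 in segment 2, 17 in segment 3 and 19 in segment 4. The telomere-facing segment thus held the most of these peaks without holding the most peaks. Coverage was 10.5% and 10.3% in segments 1 and 2, and 8.25% and 8.28% in segments 3 and 4.

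In steps of 1 Mb, the telomere-facing part combined few peaks with high scores. The first 3 Mb held 36, 34 and 37 peaks, with median scores of 193, 287 and 235. From 3 to 6 Mb the counts were 50, 44 and 56, and the median scores 141, 144 and 190. The highest counts were 64 at 18 to 19 Mb and 61 at both 7 to 8 Mb and 12 to 13 Mb. Low counts away from the ends were found at 15 to 16 Mb, with 27 peaks covering 5.61%, and at 11 to 12 Mb and 13 to 14 Mb, with 35 each. The lowest median scores were 68.3 at 6 to 7 Mb, 69.6 at 17 to 18 Mb and 73.4 at 20 to 21 Mb. At 17 to 18 Mb weak peaks also had their highest share among the 22 complete bins, 43.9% of 41 peaks. The 500 kb window with the fewest peaks away from the ends was X:15500001-16000000, with 9 peaks, none of which scored above 278.25.

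**Figure D4:**
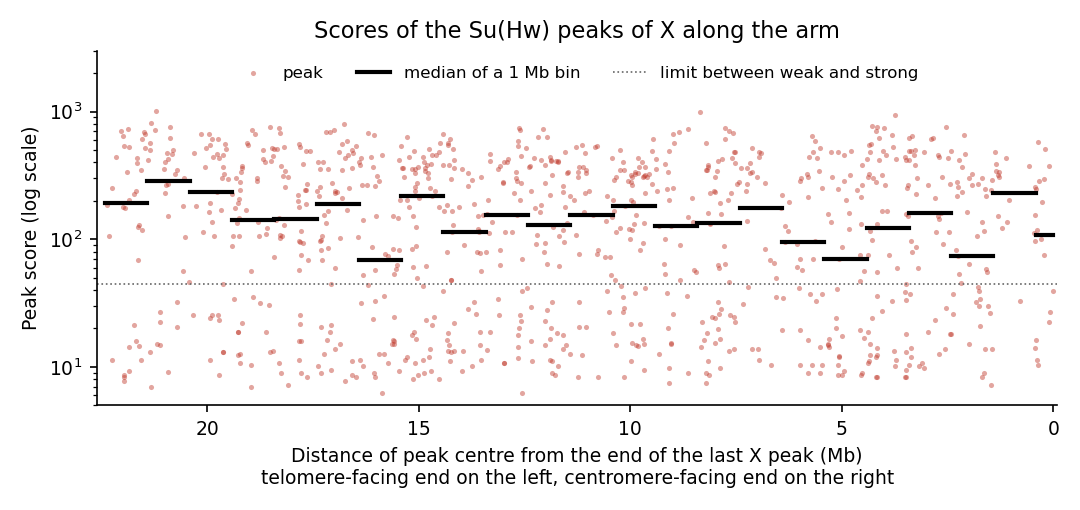
Score of each of the 999 X peaks on a log axis, by distance in Mb from the end of the last X peak, with the centromere-facing end on the right. Black bars are medians of 1 Mb bins, between 68.3 and 287, and the dotted line is the limit of 44.7 between weak and strong peaks; both kinds are present along the whole arm.

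In the last 1 Mb at the centromere-facing end X held more peaks than any autosomal arm, nearly all in the last 500 kb, and over the last 3 Mb it did not. The last 1 Mb before the end of the last peak held 23 X peaks, against 2 on 2R, 7 on 3L and 19 each on 2L and 3R. The density there was 0.505 times that of the rest of X (exact 95% interval 0.318 to 0.762), against ratios of 0.0449 on 2R to 0.422 on 2L (interval 0.253 to 0.663), so X and 2L overlapped. These 23 were unevenly placed, with 21 in the last 500 kb and 2 in the 500 kb before it. In the last 500 kb the ratio to the rest of X was 0.941 (exact 95% interval 0.580 to 1.45), against 0 on 2R to 0.3002 on 3R (interval 0.120 to 0.620), or 0 to 7 peaks on the autosomal arms. Over the last 3 Mb X held 102 peaks, against 42 on 2R to 112 on 2L, and its ratio of 0.736 (exact 95% interval 0.594 to 0.904) lay inside the range of 0.296 on 2R to 0.832 on 2L. Most of the 500 kb with 2 peaks belonged to the empty stretches X:21366199-21634127 and X:21634519-21843759. X, 2L and 3L were measured to the end of their last peak and 2R and 3R from position 1, so sequence beyond the last peak is not counted on the first 3.

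The peaks at the end of X were close to the rest of X in width and in the share of weak peaks, with a lower median score. Between X:21966870 and X:22227942, 17 peaks lay in 261 kb, 4 of them weak. The strongest was X:22052927-22056504, with a score of 578.61 and rank 61 among the X peaks, and the next X:22225589-22227942, with a score of 505.99. The 23 peaks of the last 1 Mb had a median score of 111 and a median width of 1860 bp, against 149 and 1798 bp in the rest of X. Weak peaks made up 34.8% of them, against 31.6% in the rest. The last peak of the list on X, X:22411344-22412121, scored 39.57. On XHet, the unplaced heterochromatic sequence of X, there was 1 peak, XHet:133152-133428, with a score of 6.48, and it is not among the 999.

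**Figure D5:**
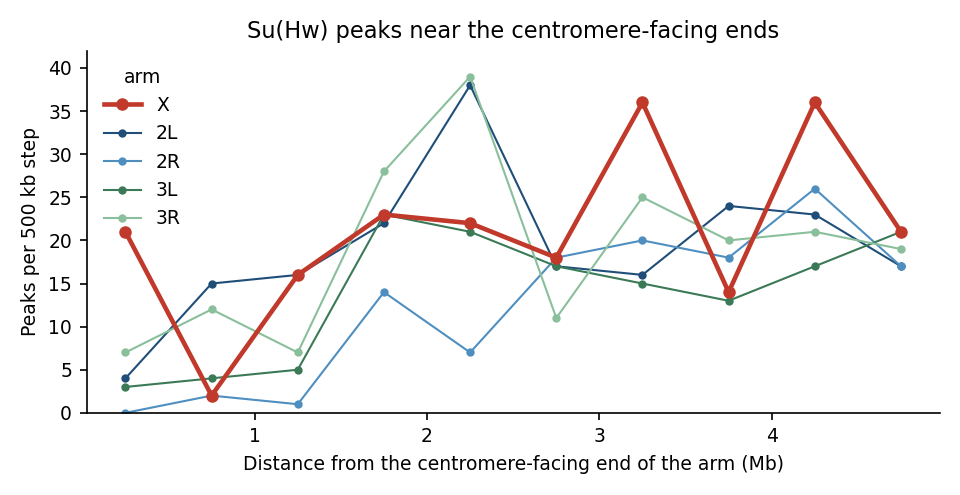
Number of peaks in steps of 500 kb from the centromere-facing end of X and of the 4 autosomal arms, by distance in Mb from that end. X holds 21 peaks in the first step, where the autosomal arms hold 0 to 7, and 2 in the second, where they hold 2 to 15.

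At the telomere-facing end the first 1 Mb of X held 36 peaks, 0.8005 times the density of the rest (exact 95% interval 0.557 to 1.12), against ratios of 0.413 on 3L to 0.932 on 3R. Within the first 3 Mb the ratio on X was 0.776 (exact 95% interval 0.629 to 0.949), against 0.948 on 3L to 1.09 on 2R. Over 3 Mb the ratio of X was the lowest of the 5 arms, while over 1 Mb it lay inside the autosomal range. The 3 Mb interval of X overlapped that of each autosomal arm, from 0.773 to 1.15 on 3L up to 0.899 to 1.30 on 2R. The peaks of the first 3 Mb of X had a median score of 235, against 134 in the rest of X. The first 3 Mb had the higher median on each autosomal arm too, with 231 against 162 on 2R, 216 against 179 on 3R, 174 against 167 on 3L and 157 against 149 on 2L. The first X peak began at position 45505 and scored 185.04.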

How the data were processed

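ChIP and input libraries of white prepupae were made by the authors. The authors' deposited list gives a position and a score for each peak. It is on FlyBase release 5 per the file headers, and its source column names MACS. BWA, MACS2, CASAVA (versions 1.7.0.2 and 1.7.0.3) and the build BDGP5 are listed in the submitters' processing notes. Not given in the sources used here: threshold, use of the input, and how libraries were combined. The list holds 1 table for the series, and 0 columns of per-sample values were set aside.

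Peaks were placed by their centres, and the last peak's end served as the length of its arm. Named regions follow a rule: the 15 strongest and 5 widest X peaks, the 5 densest 100 kb windows, the 5 longest stretches without a peak, and the extreme 500 kb windows; other regions were picked after their values were seen. The members and measures were chosen with earlier results of these data known, and recurring scores after the list was read. Intervals are exact Poisson (conditional exact for ratios of densities), Wilson, or binomial ranks for medians, at 95%. Chi-square was used for the variance of window counts and the Fisher z transformation for their trend along the arm. For ratios of medians and of weak shares, the X interval was divided by the autosomal value, taken as fixed. Ratios of density and of median score, joining at 1 kb, neighbours within 10 kb and the weak limit were checked on artificial peaks with known answers. Other measures and the intervals were not checked in this way. No genome of release 5 was used here, so no sequence, motif or gene is given; the gene table at hand is on release 6. Python 3.11.15, NumPy 2.4.6, pandas 2.3.3, SciPy 1.17.1 and matplotlib 3.10.9 were used.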

Additional observations from a re-analysis of the deposited data

How the results depend on the processing

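No paired analysis was possible because the 1 list holds no values per library; no replicate could be left out for the same reason. Of 39 alternative values, 31 stayed within the 95% interval of the reported value and 8 left it. The shares with another centre depend on their definition: 24.0% within 2 kb and 98.3% within 50 kb of X peaks, 44.3% for joined loci and 29.5% for peaks above the median score, each inside the autosomal range of the same setting. The ratio of the weak share on X to that on the autosomal arms was 1.098 for joined loci. In the last 500 kb, the density ratio on X was 0.941. Among recurring scores, an alternative added after the data were seen, the ratio of median scores turned to 1.12 and that of median widths was 0.999. The density ratio of X to the autosomal arms was 1.03 and fell to 0.976 for peaks above the median score, so it had no fixed direction. The ratio of median scores was 0.862 to 0.911 and that of median widths 0.846 to 0.880 over the settings that do not select by recurring score. Without recurring scores they were 0.977 and 0.941, and X lay inside the range of the autosomal arms for both medians. The lower variance of window counts on X did not hold for joined loci, peaks above the median score or 1 Mb windows, where X lay inside the autosomal range. The trend of window counts along X was -0.256 to 0.046. A calculation with arm lengths of a release 5 genome was not run. Depth is unknown, which limits every statement on absent peaks.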

Other observations

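Several groups of strong or broad peaks lay close together on X; they were chosen here after their values were seen. Between X:1060872 and X:1212561, 6 peaks in 152 kb included 2 of the 15 strongest and 2 of the 5 widest peaks of X, and 4 of the 6 belonged to its 100 strongest. Between X:9705171 and X:9815724, 14 peaks in 111 kb included the widest X peak and 3 of the 10 widest, and covered 49.3 kb. Between X:18016299 and X:18700442, 46 peaks in 684 kb held 4 of the 15 strongest, 10 of the 100 strongest and 16 weak peaks. Weak peaks made up 31.6% of all X peaks. The median score of these 46 was 166, against 146 over all X peaks, and they held 0 of the 10 widest.

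Weak X peaks beside a strong one lay mostly on its centromere-facing side. Of 162 weak X peaks with a strong peak within 1 kb on 1 side only, 100 had it on their telomere-facing side (61.7%, Wilson 95% interval 54.1 to 68.9%), against 44.0% on 3L to 49.7% on 2R. This side was noticed among many measures, and the difference was not tested.

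Recurring scores were present along the whole of X, at 48.3% of the peaks in the telomere-facing one of 4 equal segments and 59.0%, 56.4% and 58.7% in the following ones. The first segment, which had the lowest share, also had the highest median score. X loci next to each other were hardly alike in score: over 769 neighbouring pairs the Spearman rho was 0.06, against -0.003 on 3L to 0.11 on 2L.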
